A study of Homo sapiens with 3 samples.

Results

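DNA replication and the entry into S phase were followed through 46 genes in NCI-N87, an established line of human gastric cancer cells, after siRNA against FOXP4, which encodes a forkhead transcription factor. The genes were chosen by symbol from a list of origin, helicase, polymerase, nucleotide and E2F genes, and all 46 were found among the 31907 rows of the deposited table and passed the filter on low values. They were sorted by role into 10 groups, called machines here, such as the MCM helicase or the clamp and its loader. The control library, labelled WT, had received a scrambled siRNA, and the other 2 libraries, labelled Knockdown, had received siRNA1 or siRNA2 against FOXP4. All 3 cultures were transfected with Lipofectamine 2000, and poly(A) RNA was sequenced from each. The siRNAs differ, so the knockdown libraries are 2 reagents rather than repeats of 1 treatment. The labels give neither the time between transfection and harvest nor whether the cultures were grown separately. Values are in TPM, a read share corrected for exon length that adds up to about the same total in every library. Where 3 values of a gene follow each other, their order is scrambled siRNA, siRNA1, siRNA2, and a difference is that of log2(TPM + 1) from the scrambled library.

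Before a cell copies its DNA, the origin recognition complex, CDC6 and CDT1 load a ring of MCM2 to MCM7 onto each origin. CDC45 and the GINS complex then join the ring to form the working helicase. Polymerase alpha with primase starts each strand, the RFC complex loads the PCNA clamp, and polymerases delta and epsilon extend the strands. Many of the genes involved are switched on late in G1 by E2F transcription factors once the RB family is inactivated. Cyclin E and its kinase take part in that inactivation.

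E2F words were found in the promoters of some members, and a few of these promoters are shown so that the words can be seen beside the values of their genes. The words searched were TTTCCCGC, TTTCGCGC, TTTGCCGC and TTTGGCGC on both strands, in RefSeq windows (GRCh38.p14) from 250 bases before to 50 bases after a start site. Windows were found for 41 of the 46 members, and 23 of those 41 (56.1%) held at least 1 word. The share was 6.83% of 8977 tested genes with a window, and 3.31% of all 35116 windows. A match is a description of the sequence, not evidence of binding. The stretches below are 120 bases each, with E2F words in capitals. They come from members that measured low with both siRNAs (MCM6, MCM2, GINS2, PCNA and CDT1), from E2F1, and from CDC6, which measured high with both, and were chosen after these values were seen. Their positions are chr2:135876489-135876608 (MCM6, minus strand), chr3:127598321-127598440 (MCM2, plus), chr16:85688955-85689074 (GINS2, minus), chr20:5126623-5126742 (PCNA, minus), chr16:88803669-88803788 (CDT1, plus), chr20:33686386-33686505 (E2F1, minus) and chr17:40287789-40287908 (CDC6, plus).
MCM6: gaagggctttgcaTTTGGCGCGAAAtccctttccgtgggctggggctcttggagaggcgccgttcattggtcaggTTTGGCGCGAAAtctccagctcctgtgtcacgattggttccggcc
MCM2: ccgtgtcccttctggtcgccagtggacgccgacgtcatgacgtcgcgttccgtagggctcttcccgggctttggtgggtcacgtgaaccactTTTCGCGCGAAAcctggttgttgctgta
GINS2: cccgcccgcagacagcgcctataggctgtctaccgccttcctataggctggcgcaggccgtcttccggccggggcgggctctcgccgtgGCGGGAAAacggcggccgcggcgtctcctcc
PCNA: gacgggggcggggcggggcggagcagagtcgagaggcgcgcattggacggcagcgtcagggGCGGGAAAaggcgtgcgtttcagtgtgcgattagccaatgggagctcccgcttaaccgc
CDT1: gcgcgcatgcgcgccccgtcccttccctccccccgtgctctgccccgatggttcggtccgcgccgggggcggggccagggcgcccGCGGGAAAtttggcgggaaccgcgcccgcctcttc
E2F1: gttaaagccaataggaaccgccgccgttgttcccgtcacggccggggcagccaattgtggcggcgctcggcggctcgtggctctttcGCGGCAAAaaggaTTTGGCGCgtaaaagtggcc
CDC6: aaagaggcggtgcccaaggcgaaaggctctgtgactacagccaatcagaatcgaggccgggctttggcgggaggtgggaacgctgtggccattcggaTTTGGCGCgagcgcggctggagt
In MCM6 and MCM2 each capital block holds 2 words that overlap on opposite strands, so the MCM6 stretch holds 4 words and the MCM2 stretch 2. The E2F1 stretch holds 2 separate words, and the other stretches hold 1 each.

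The libraries were close in estimated depth, at 17900000 to 18700000 reads on genes of known exon length, an estimate read from the steps of low TPM values. FOXP4 itself measured 93.9, 51.6 and 36.7 TPM. That is 54.97% and 39.0% of the control, though with the trend of differences on GC content removed the log2 difference with siRNA1 was only -0.20, against -1.02 with siRNA2. Mitochondrially encoded genes took 6.37%, 10.4% and 1.92% of TPM in the scrambled, siRNA1 and siRNA2 libraries. The median of all 14429 genes tested lay at a log2 difference of 0.03 with siRNA1 and -0.24 with siRNA2, and median-of-ratios rescaling took these medians to 0.02 and 0, so differences with siRNA2 are best read against -0.24. Of 11 epithelial markers 10 passed the filter, with summed levels of 5606, 4283 and 7002 TPM, and CDH1 was low among them at 4.16, 5.86 and 11.6 TPM. Of 8 immune markers 6 were found by symbol and 2 passed. These were LYZ, high at 3574, 4401 and 3325 TPM, and CSF1R, at 4.33, 2.26 and 3.69 TPM, while CD14 and CD68 were listed at 0. Of 8 fibroblast and endothelial markers 7 were found, and COL1A1 alone passed at 13.1, 6.42 and 22.3 TPM. COL1A2, DCN and CDH5 were listed at 0. The part of these markers and of the mitochondrial share in the results was not tested. In bulk RNA, fewer cells in S phase and less RNA per cell cannot be told apart.

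As a group the replication genes measured lower in both knockdown libraries. Of the 46, 34 lay below the scrambled library with both siRNAs, 2 lay above it with both, and 10 were above it with siRNA1 and below it with siRNA2. Over all genes tested these shares were 38.1%, 24.5% and 26.9%. Counted by reagent, 34 members were lower with siRNA1 and 44 with siRNA2, beside 47.9% and 65% of all genes. The members' median log2(TPM + 1) difference was -0.39 with siRNA1 and -0.96 with siRNA2. Summed over the members, the libraries held 4473, 3072 and 2345 TPM, so the knockdown libraries had 68.7% and 52.4% of the control sum. By a rule of size, 3 members (MCM5, MCM6 and POLD1) were at least 2-fold lower with both siRNAs, where 2.38% of all genes were, and 0 members were at least 2-fold higher with both, where 2.52% were. With siRNA2 alone in view, 21 members were at least 2-fold lower (13.2% of all genes), and with siRNA1 alone in view 5 were (6% of all genes). The rule counts from the control, not from the all-gene median of -0.24 with siRNA2. With siRNA2 some members only just met it, such as SLBP at -1.004, RFC4 at -1.01 and UHRF1 at -1.03, while others, such as MCM5 at -2.07, lay far below. Among genes averaging at least 10 TPM, where 42 of the members lie, the shares at least 2-fold lower were 1.57% with both siRNAs, 10.9% with siRNA2 and 4.35% with siRNA1.

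No member passed the test. Limma, with Benjamini-Hochberg adjustment over all 14429 genes, called 0 genes (0% of those tested) and 0 members, the smallest adjusted p being 0.9999. At an unadjusted p under 0.05 it had 428 genes, 2.97% of those tested, and 4 members, POLD1, MCM5, MCM6 and MCM2 (unadjusted p of 0.0144, 0.0158, 0.0434 and 0.0465 in limma). With 2 libraries against 1 the test has 1 residual degree of freedom of its own, and an exact permutation test of a single gene cannot go below p = 0.333. Both differences of a gene use the same scrambled library, which has no replicate.

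**Figure D1:**
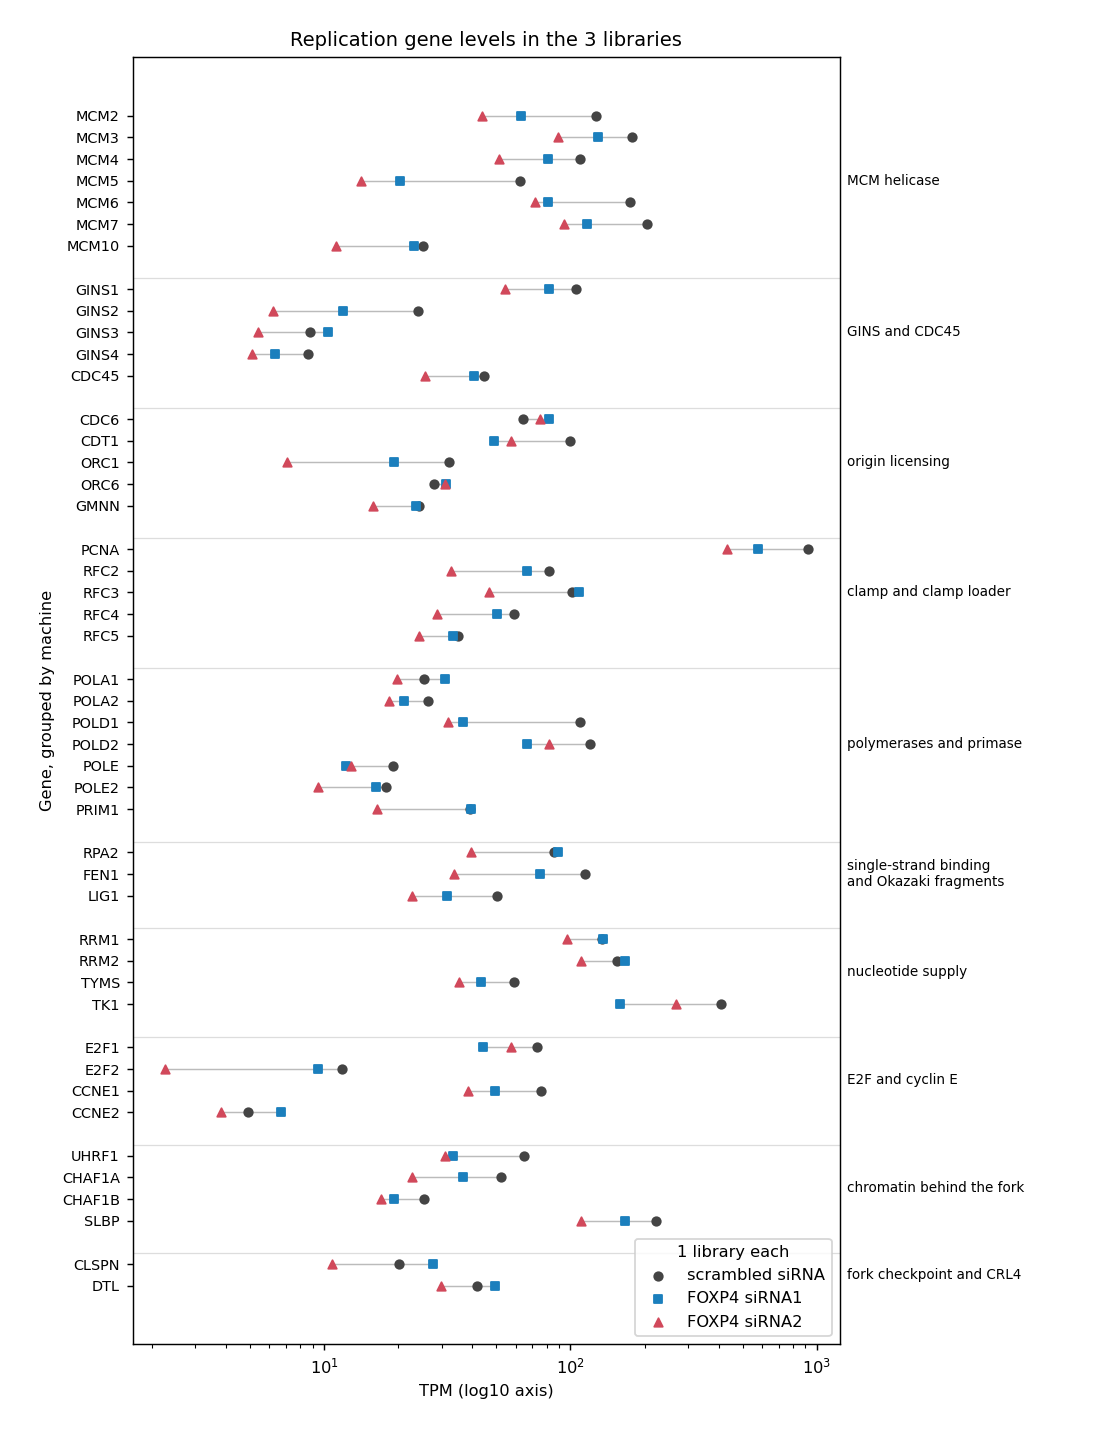
TPM of each of the 46 genes on a log10 axis, grouped by machine, with 1 point for each library (circle scrambled siRNA, square siRNA1, triangle siRNA2) and a line joining the lowest and highest. The triangles lie left of the circles for 44 genes, and PCNA is the highest gene in all 3 libraries, from 432 to 918 TPM.

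The MCM genes, which form the core of the replicative helicase, were low as a whole. All 7, including MCM10, which helps to activate the loaded ring, measured lower with both siRNAs, under each of the scalings and filters tried. Of all genes tested, 38.1% were lower with both. MCM5, a subunit of the ring (ENSG00000100297.15, chromosome 22, 35400063 to 35425430, plus strand, GRCh38), stood at 62.5, 20.3 and 14.1 TPM. Both knockdown values lie far below the control, with siRNA2 minus siRNA1 at -0.50 on the log2 scale. The mean log2 difference over the 2 siRNAs was -1.82 ± 0.35 (SD, n = 2), the lowest of any member. MCM6 (ENSG00000076003.4, chromosome 2, 135839626 to 135876426, minus strand) measured 174, 80.98 and 71.8 TPM, a mean of -1.18 ± 0.12 (SD, n = 2). The 2 siRNAs gave nearly the same MCM6 level. For MCM2 the levels were 127, 63.1 and 43.9 TPM in the same order of libraries, 49.7% and 34.6% of the control. MCM2 misses the 2-fold rule with siRNA1 only because the rule adds a pseudocount of 1 TPM.

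MCM7, at 205, 117 and 94.4 TPM, and MCM3, at 177, 129.7 and 88.9 TPM, were less reduced with siRNA1 than with siRNA2. MCM4 showed the same order at 109.8, 80.7 and 51.5 TPM. MCM10 measured 25.2, 23.1 and 11.2 TPM, slightly below the control with siRNA1 and well below it with siRNA2. The ring holds 1 copy of each of its 6 subunits, yet their mRNAs spanned 3.28-fold in the control, from MCM5 to MCM7. The span was 6.39-fold with siRNA1, from MCM5 to MCM3, and 6.70-fold with siRNA2, from MCM5 to MCM7. When the same reads were divided by the longest coding transcript in place of all annotated exons, a calculation added after the values were seen, the spans were 2.25-fold, 3.93-fold and 4.59-fold with MCM5 lowest and MCM7 highest in each library.

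Of the partners that turn the ring into a helicase, 4 of 5 were lower with both siRNAs, and 5 of 5 with the GC trend removed. The shares over all genes were 38.1% and 34.3%. With the trend removed, the siRNA1 differences of GINS3 and CDC45 were small, at -0.04 each, beside -0.45 for GINS4, -0.72 for GINS1 and -0.96 for GINS2. GINS2 (chromosome 16, 85676198 to 85690073, minus strand) was the most reduced, at 23.95, 11.9 and 6.21 TPM, a mean log2 difference of -1.37 ± 0.59 (SD, n = 2). The other GINS subunits did not follow it closely. GINS1 measured 105 TPM, then 81.7 TPM and 54.4 TPM, and GINS4 8.61, 6.34 and 5.08 TPM. GINS3 was split, at 8.74, 10.3 and 5.41 TPM, above the control with siRNA1 and below it with siRNA2. CDC45, which binds the ring beside GINS, was 44.5, 40.4 and 25.6 TPM, so its siRNA1 value lay near the control.

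The licensing factors lay on both sides of the control. CDC6 and ORC6 were the 2 members above the control with both siRNAs, and they stayed above it under each scaling and filter tried. CDC6, which recruits the ring to origins, measured 64.0, 81.6 and 75.3 TPM, differences of 0.35 and 0.23 on the log2 scale. ORC6, a subunit of the origin recognition complex, lay close to the control at 27.9, 31.3 and 30.9 TPM. ORC1, the subunit that comes and goes with the cell cycle, measured lower instead, at 32.1, 19.2 and 7.04 TPM. The siRNA2 library thus held 21.9% of the control level of ORC1, the second lowest share of any member with that siRNA. CDT1, the partner of CDC6 in loading, measured 99.5, 49.1 and 57.4 TPM, low with both siRNAs and lower with siRNA1. GMNN, which encodes the CDT1 inhibitor geminin, measured 24.3, 23.6 and 15.9 TPM, slightly below the control with siRNA1 and further below it with siRNA2.

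PCNA, the sliding clamp, was the most abundant member in every library. It measured 918, 577 and 432 TPM, or 62.9% and 47.0% of the control. The 4 clamp loader genes in the list were low with siRNA2, and with siRNA1 lay nearer the control than PCNA did. RFC2 measured 81.5, 66.5 and 32.9 TPM, RFC4 59.0, 50.5 and 28.8 TPM, and RFC5 35.1, 33.4 and 24.2 TPM. RFC3 was 102, 108 and 46.7 TPM. With siRNA1 the 4 loader genes thus lay between a log2 difference of -0.29 and 0.09, around the median of all genes, while PCNA lay at -0.67. With the GC trend removed, RFC2 was at -0.09, RFC3 at -0.36, RFC4 at -0.40, RFC5 at -0.29 and PCNA at -0.85 with siRNA1.

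Among the polymerases, the catalytic subunit of polymerase delta stood out. POLD1 (ENSG00000062822.13, chromosome 19, 50384204 to 50418016, plus strand) measured 109, 36.7 and 31.9 TPM, a mean log2 difference of -1.65 ± 0.14 (SD, n = 2). Its partner subunit POLD2 was reduced less, at 120.3, 66.6 and 82.1 TPM. POLE, the catalytic subunit of polymerase epsilon, measured 19.0, 12.3 and 12.9 TPM, about the same with both siRNAs. POLE2, the second subunit, measured 17.8, 16.2 and 9.42 TPM, a little lower with siRNA1 and much lower with siRNA2.

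Polymerase alpha and primase make the primers. POLA1 was split, at 25.5, 31.1 and 19.7 TPM, and its mean difference of -0.04 turned positive under median-of-ratios rescaling (0.087) and quantile normalization (0.069). POLA2 measured 26.3, 21.0 and 18.4 TPM. PRIM1, the catalytic subunit of primase, measured 39.1, 39.5 and 16.4 TPM, nearly equal in the first pair of libraries and low in the last.

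FEN1 and LIG1, which finish Okazaki fragments, were lower with both siRNAs. FEN1, the flap nuclease, measured 115, 75.5 and 33.7 TPM, which is 65.9% and 29.4% of the control. LIG1, the ligase that seals the fragments, stood at 50.5, 31.5 and 22.6 TPM. RPA2, a subunit of the protein that coats single-stranded DNA, did not share the siRNA1 difference, at 85.9, 89.1 and 39.5 TPM.

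The enzymes of nucleotide supply differed between the siRNA libraries. TK1, thymidine kinase, measured 409, 159 and 269 TPM. It is 1 of 5 members lower with siRNA1 than with siRNA2, and had the largest gap of them. The ribonucleotide reductase genes RRM1, at 134, 135 and 96.9 TPM, and RRM2, at 154, 167 and 110.5 TPM, lay at or above the control with siRNA1. TYMS, thymidylate synthase, was between, at 59.0, 43.4 and 35.1 TPM. With the GC trend removed, all 4 lay below it with both siRNAs, as given further on, though RRM2 lay at only -0.05 with siRNA1.

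The regulators that switch on this programme differed among themselves. E2F1 measured 73.3, 44.3 and 57.3 TPM, lower with both siRNAs and lowest with siRNA1. With the GC trend removed, its differences were only -0.08 with siRNA1 and -0.03 with siRNA2, so it lay near the trend with both. E2F2, another activator, measured 11.9, 9.41 and 2.25 TPM, and its siRNA2 level was 19.0% of the control, the lowest share of any member. That siRNA2 value rests on about 56.5 estimated reads, the fewest behind any value of a member. CCNE1, cyclin E1, was lower in turn at 75.98, 49.3 and 38.3 TPM, whereas CCNE2, the least abundant member in the control, measured 4.93, 6.69 and 3.83 TPM.

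All 4 genes that rebuild chromatin behind the fork were lower with both siRNAs, beside 38.1% of all genes tested. UHRF1, which brings the maintenance DNA methyltransferase to new DNA, measured 64.5, 33.3 and 30.996 TPM, almost the same with both siRNAs. CHAF1A and CHAF1B, subunits of the histone chaperone CAF-1, measured 52.5, 36.5 and 22.7 TPM and 25.4, 19.2 and 17.0 TPM. SLBP, which binds the stem-loop of histone mRNAs, was 223, 167 and 111 TPM. The fork checkpoint gene CLSPN was split, at 20.1, 27.5 and 10.7 TPM, and so was DTL, an adaptor of the CRL4 ligase that degrades CDT1, at 41.6, 49.5 and 29.8 TPM.

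**Figure D2:**
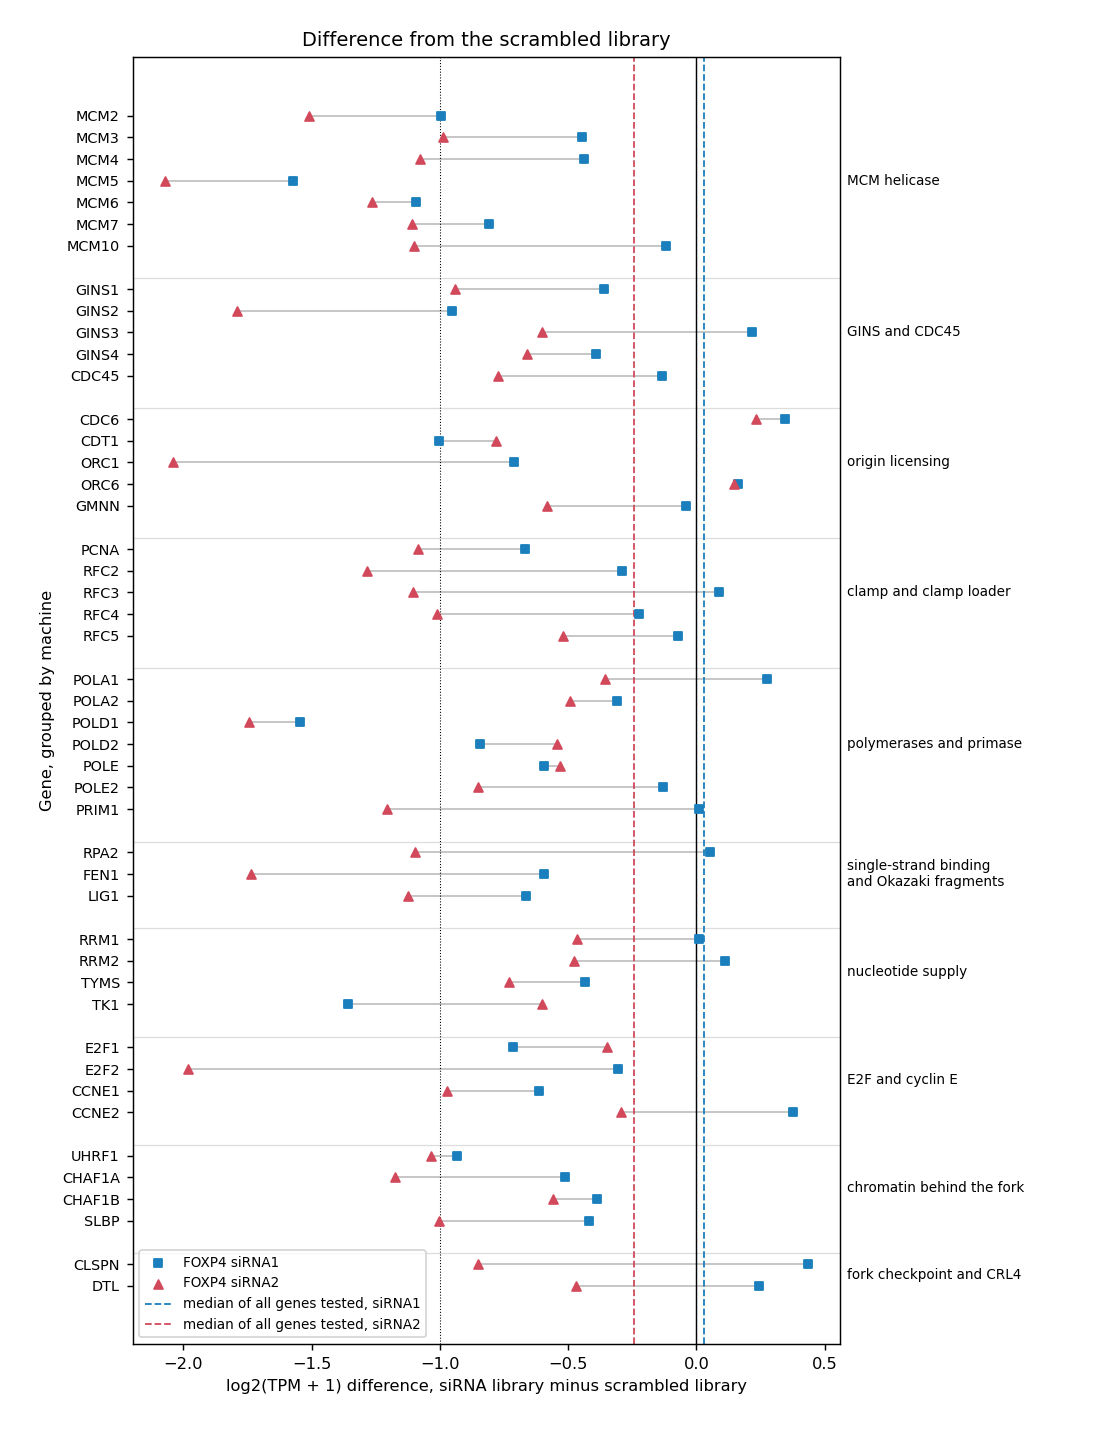
Difference in log2(TPM + 1) between each siRNA library and the scrambled library for the 46 genes (square siRNA1, triangle siRNA2), with the median of all genes tested as dashed lines (0.03 and -0.24), the control at 0 and the 2-fold line at -1 (dotted). For 41 of the 46 genes the triangle lies left of the square.

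Members were mostly lower with siRNA2 than with siRNA1. In 41 of 46 members the siRNA2 library was below the siRNA1 library, against 64.3% of all genes tested, and the 5 exceptions were TK1, E2F1, POLD2, CDT1 and POLE. These 5 are among the 12 members with a GC content of at least 55% (62.8%, 62.5%, 59.1%, 64.9% and 55.6%). GC content went with the siRNA1 differences over the whole transcriptome. It was compared with the log2 difference among all 8594 genes with a GC value that averaged 10 TPM or more. The Spearman correlation was -0.68 with siRNA1 and -0.11 with siRNA2, and across the 46 members it was -0.73 and -0.28. Genes are not independent replicates, and all of these points share the same libraries.

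By GC class, the 12 members of at least 55% GC had a median difference of -0.83 with siRNA1, and all 12 were lower. The 20 members of 45 to 55% GC had a median of -0.404, and the 14 members under 45% GC had a median of 0.01 with siRNA1, where 6 were lower. With siRNA2 the medians were -1.12, -0.996 and -0.73. The siRNA1 trend of all nuclear genes of at least 10 TPM itself ran from 0.20 at 45% GC to -0.26 at 55% and -0.78 at 65%. With siRNA2 that trend ran from -0.20 to -0.31 and -0.33 at the same GC contents. How many of all genes were lower in each GC class was not counted. After the whole-transcriptome trend was taken off, the siRNA1 medians of the GC classes were -0.37, -0.40 and -0.30, and those with siRNA2 were -0.81, -0.72 and -0.53. Members below the trend then numbered 42 with siRNA1, 44 with siRNA2 and 42 with both, where 34.3% of 12302 genes lay below it with both. The median distance of those 12302 genes from the trend was 0.004 with siRNA1 and -0.013 with siRNA2. RRM1, RRM2, RFC3, PRIM1, RPA2, POLA1, GINS3, DTL and CCNE2 then lay below the trend with both in place of being split, and the 4 members not below it with both were CDC6, ORC6, CLSPN and E2F2. With siRNA1 several of the former lay close to the trend. RPA2 was at -0.007, POLA1 at -0.01, GINS3 at -0.04, RRM2 at -0.05, DTL at -0.08 and CCNE2 at -0.13. RRM1 at -0.26, RFC3 at -0.36 and PRIM1 at -0.37 lay further below.

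Removing the trend also shrank the GC-rich members. The siRNA1 difference of POLD1 was -0.77 in place of -1.55, that of TK1 -0.71 in place of -1.36, that of CDT1 -0.23 in place of -1.004 and that of E2F1 -0.08 in place of -0.71. MCM6, with a GC content of 43.1%, went from -1.09 to -1.37. Of the members, MCM5 (-1.23 and -1.76) and MCM6 (-1.37 and -1.07) then met the 2-fold rule with both siRNAs, where 0.951% of genes did. What lies behind the GC trend was not tested.

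**Figure D3:**
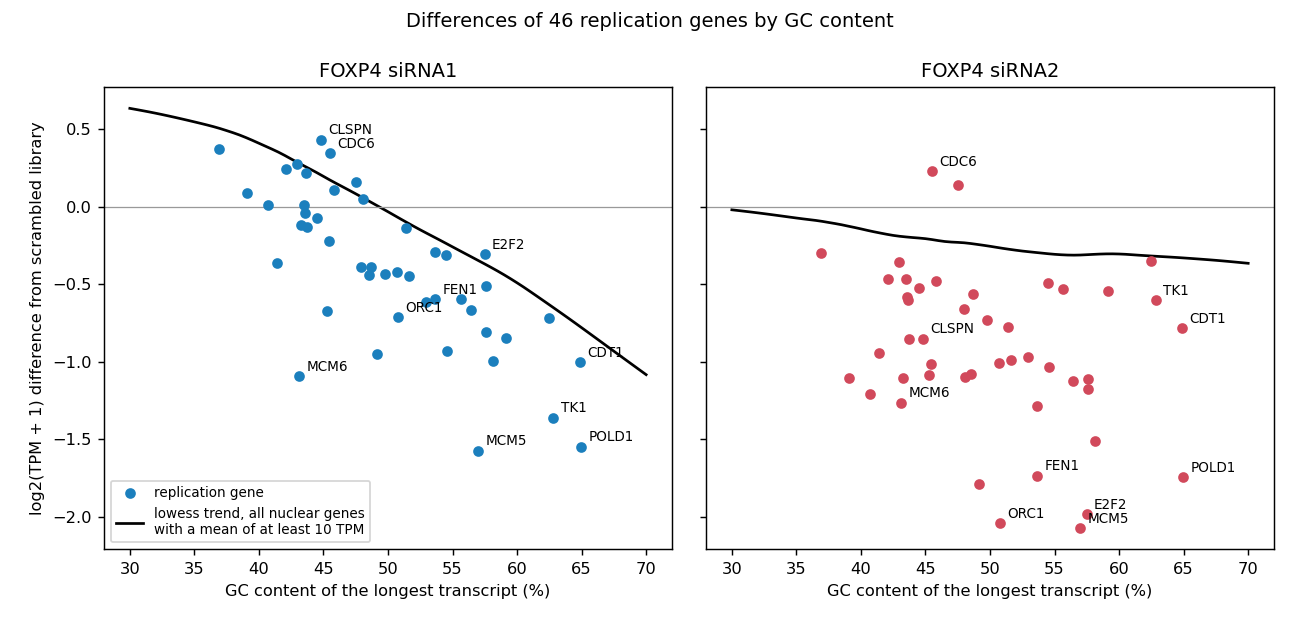
Difference in log2(TPM + 1) from the scrambled library against GC content of the longest transcript (%) for the 46 genes, siRNA1 on the left and siRNA2 on the right, with the lowess trend of all nuclear genes of at least 10 TPM as a line. Of the 46 points, 42 lie below the line with siRNA1 and 44 with siRNA2. Over all 12302 tested genes with a GC value the median distance from the line was 0.004 with siRNA1 and -0.013 with siRNA2.

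Other genes of the same processes gave a mixed picture. These were 73 further replication, nucleotide, E2F, chromatin and fork repair genes, which all passed the filter. Of them, 30 (41.1%) were lower with both siRNAs and 10 were higher with both, beside 38.1% and 24.5% of all genes tested. Limma called 0 of them, and their medians were 0.11 and -0.59. In 67 of them (91.8%) the siRNA2 library was below the siRNA1 library, against 64.3% of all genes tested. They were poorer in GC than the members, with a median of 42.6% against 48.9%. Of the 72 with a GC value, 46 lay below the GC trend with both siRNAs, against 34.3% of all 12302 genes with one. No test of the difference between these genes and the members was made.

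Among further origin factors RECQL4, a helicase needed to start replication, measured 51.7, 20.6 and 14.3 TPM, the lowest mean difference of its list. ORC2, another subunit of the origin complex, was above the control with both siRNAs, as ORC6 was, at 40.99, 74.0 and 45.5 TPM. In the list of further polymerase and loader subunits, CHTF18, of the alternative clamp loader, was 34.0, 10.8 and 12.8 TPM, while RFC1, the large subunit of the main loader, was above the control at 86.1, 149.7 and 114 TPM. Of the other fork factors, TOP1, the topoisomerase that relaxes DNA ahead of the fork, was higher with both siRNAs at 302, 518 and 955 TPM, and RNASEH2A was lowest by mean difference at 90.9, 50.8 and 48.8 TPM. Of the further nucleotide enzymes DCTPP1 was lowest by mean difference at 127, 86.2 and 41.8 TPM, and TK2, the mitochondrial thymidine kinase, was highest at 9.54, 14.7 and 6.56 TPM, above the control with siRNA1 and below it with siRNA2.

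The atypical E2F genes, whose products repress E2F targets, went opposite ways with siRNA2. E2F7 measured 14.8, 32.4 and 204 TPM, the highest mean difference of its list (2.39 on the log2 scale). E2F8 measured 57.4, 60.7 and 9.54 TPM, the lowest of that list. Neither passed limma (adjusted p = 0.9999 for both). Among further chromatin genes CDCA7 was lowest by mean difference at 206, 172 and 73.6 TPM, and USP1, a deubiquitinase that acts on PCNA, was highest at 101, 149 and 95.3 TPM. Among fork repair genes MSH6, a mismatch repair gene, was lowest at 35.8, 24.9 and 14.3 TPM, and BRCA2 was highest at 6.16, 13.5 and 5.84 TPM. USP1 and BRCA2 were above the control with siRNA1 and slightly below it with siRNA2.

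Genes of G2/M and mitosis, the next wave of the cell cycle, were a close comparison. Of 30 tested, 18 (60%) were lower with both siRNAs, 0 were higher with both, and the medians were -0.12 and -0.91. With siRNA2 their median is thus near that of the replication genes, and with siRNA1 it is nearer the control. With the GC trend removed the G2/M medians were -0.32 and -0.69, beside -0.36 and -0.70 for the replication genes. The 15 housekeeping genes had medians of -0.07 and -0.17.

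**Figure D4:**
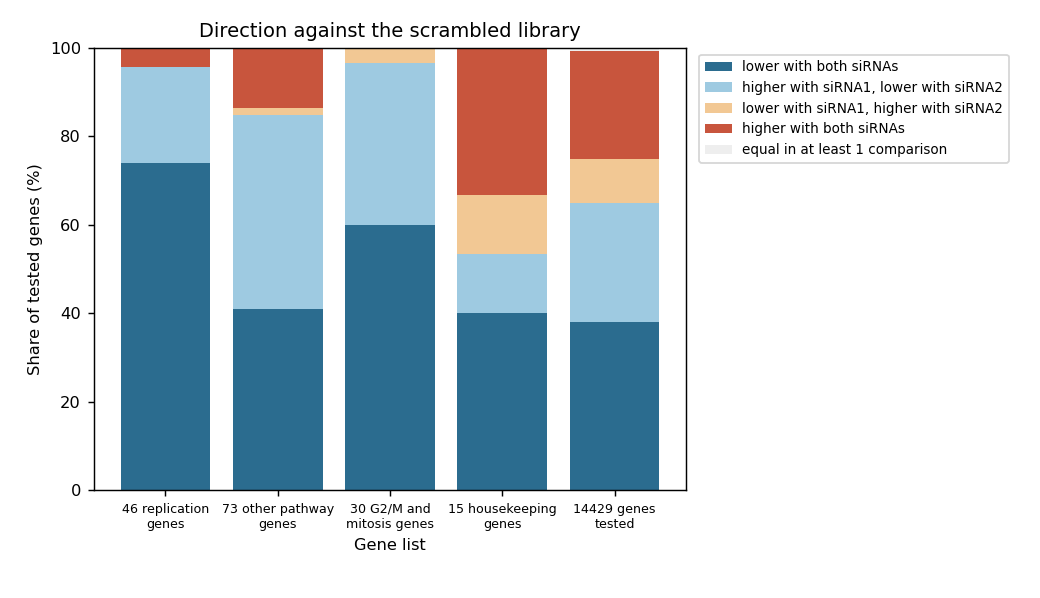
Share of tested genes (%) by direction against the scrambled library for the 46 replication genes, 73 other pathway genes, 30 G2/M genes, 15 housekeeping genes and all genes tested. The dark lower block, lower with both siRNAs, is 73.9%, 41.1%, 60%, 40% and 38.1% of the bars in that order.

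Members with and without an E2F word in the window had similar values. For the 23 with a word the median differences were -0.44 and -0.85, 17 of them (73.9%) being lower with both siRNAs. For the 18 without one the median differences were -0.34 and -0.99, 14 (77.8%) being lower with both. This difference was not tested. Over all tested genes with a window, 40.9% of the 613 with a word and 38.3% of the 8364 without were lower with both. Single genes went both ways. MCM6, with 4 words, had a mean difference of -1.18, and POLD1 and ORC1, without a word, lay lower at -1.65 and -1.38. CDC6, with 1 word, and ORC6, without one, were both above the control with both siRNAs.

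The forkhead word TGTTTAC was found in the window of 1 of 41 members (2.44%) and of 3.63% of tested genes, again on either strand. CCAAT, the NF-Y word, was found in 61.0% of members and 43.4% of tested genes. No match says only that these letters are not in the window.

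Some members share exons with neighbours, and no source used here states that reads were assigned by strand. At least 10% of exon bases also belonged to another gene for 9 members. The shares were largest for TYMS (46.6%, mostly with ENOSF1 on the opposite strand), CCNE2 (37.1%, mostly with INTS8) and POLA2 (35.1%). MCM2 shares 23.6% of its exon bases, mostly with an antisense transcript. For POLA2, PRIM1 (21.6%) and RRM2 (20.2%) the main overlapping gene lies on the same strand. Reads there could not be told apart. MCM5, MCM6, PCNA, ORC1, UHRF1 and TK1 share none.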

How the data were processed

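Expression was measured in 3 libraries, 1 with a scrambled siRNA and 2 with different siRNAs against FOXP4. The authors deposited 1 table of TPM per library, as the labels' descriptions name it. Per the submitters' processing notes the build was GRCh38, and the quantification tool and annotation are not given in the sources used here. Values were compared as log2(TPM + 1) for the 14429 genes that averaged at least 1 TPM, so a difference understates the change of low genes. The package limma 3.58.1 (R 4.3.3; empirical Bayes with a trend on intensity) compared 2 libraries with 1 and was tested on simulated data, as was the motif search. The lone control is assumed to vary like the knockdown libraries. The limma p-values rest on the spread between the siRNA1 and siRNA2 libraries, which differ in reagent and are not repeats of 1 treatment. As no label names separate cultures, part of that spread may be technical. Exon lengths, GC content (longest transcript) and positions came from GENCODE 29, matched by symbol for 22180 rows. Depth was estimated from values under 2 TPM with up to 10 reads, of which 92.5% to 92.9% lay within 0.1 of whole reads (20% by chance). The GC trend is a lowess curve (fraction 0.3, statsmodels 0.14.6) over nuclear genes of at least 10 TPM. All members were named by rule, as were the highest and lowest genes, by mean difference, of each list of other pathway genes. Members and lists were chosen with earlier results of these data known. Alternatives were other pseudocounts, filters, scalings, gene types, the GC trend and each siRNA left out.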

Additional observations from a re-analysis of the deposited data

Results flagged for a closer look

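10 members lay above the scrambled library with siRNA1 and below it with siRNA2, and were picked out because the 2 reagents gave opposite signs. The difference between the siRNAs was not tested. In log2, siRNA2 minus siRNA1 was -1.28 for CLSPN, -1.22 for PRIM1, -1.19 for RFC3, -1.15 for RPA2, -0.82 for GINS3, -0.71 for DTL, -0.67 for CCNE2, -0.63 for POLA1, -0.59 for RRM2 and -0.48 for RRM1. The same pattern held for 21.7% of the 46 members and 26.9% of all genes tested. For RRM1 and PRIM1 the siRNA1 library lay 0.01 above the control on the log2 scale. Among the 10, CCNE2 (37.1%), PRIM1 (21.6%), RRM2 (20.2%) and GINS3 (10.9%) share at least 10% of exon bases with other genes. The part of this overlap in the opposite signs was not tested.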

How the results depend on the processing

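With 1 control library no difference has a replicate check on that side, and the deposited values carry no error of their own. Limma called 0 members in every fit run. Over all genes it called 93 at a mean of at least 10 TPM, 92 among protein-coding genes and 11 without mitochondrially encoded genes, against 0 otherwise. The smallest adjusted p of a member in limma was 0.202, for MCM5 at a mean of at least 10 TPM, in a range up to 0.99997 over the fits. Members lower with both siRNAs numbered 33 to 42 of 46 (32 of 42 at 10 TPM), and the members' medians kept their sign. Genes 2-fold lower with both siRNAs were 521 with a pseudocount of 0.1, 121 with a pseudocount of 5, 583 without a filter, 143 at 10 TPM, 177 among protein-coding genes and 117 with the GC trend removed, in place of 343. Members 2-fold lower with both were 5 with a pseudocount of 0.1. With one siRNA left out the counts were 866 and 1902 genes, 5 and 21 members at 2-fold, and 34 and 44 members lower. The share of 2-fold genes that were lower was 48.6% (343 lower, 363 higher), 38.5% after median-of-ratios rescaling (247 and 395), 60.8% without a filter (583 and 376) and 29.3% with the GC trend removed (117 and 282). The mean difference of POLA1 turned to 0.087 after median-of-ratios rescaling and 0.069 after quantile normalization, that of DTL to 0.017 after median-of-ratios rescaling, and that of CCNE2 to -0.17 with the GC trend removed; the cause was not tested. The other 43 members kept the sign of their mean in every setting that used both siRNAs. No paired analysis was possible because the scrambled group has 1 library and its label gives no replicate number.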

Other observations

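The promoter words of the cell cycle waves divided between the lists. CHR words (TTTGAA or TTCGAA, either strand, same windows) were found in 20 of 24 G2/M genes with a window (83.3%) and in 2 of 41 replication genes (4.88%), beside 15.3% of tested genes. E2F words were found in 3 of the 24 G2/M genes (12.5%) and in 56.1% of the replication genes. CCAAT was found in 83.3% of the G2/M genes. These are counts of letters in the windows, with no test.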
